A study of Mus musculus with 23 samples.

Results

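The histone genes of the mouse colonic epithelium were examined by class (H1, H2A, H2B, H3 and H4) and by genomic cluster, beside 9 genes that encode variant histones. Members were the loci whose symbols start with Hist1h to Hist4h. There were 68 such symbols at 77 loci, of 24917 loci in the table of counts, and 59 of the 77 loci had a count in any sample. Expression filtering left 57 loci for testing in each fit (6 H1, 13 H2A, 16 H2B, 10 H3 and 12 H4 genes), and all 9 variant genes were tested. RNA had been extracted from the epithelium that EDTA releases from the whole colon of male C57BL/6 mice (C57BL/6J in the study's methods), and ribosomal RNA had been removed before sequencing. Feeding began at 6 weeks of age and lasted 43 weeks. LF mice received a 10% fat diet, HF mice a 60% fat diet, and HF-LF mice the 60% diet for 15 weeks followed by the 10% diet for 28 weeks. Samples carried a batch label. Batch 1 held 4 LF, 3 HF and 4 HF-LF samples, and batch 2 held 4 LF, 3 HF and 5 HF-LF samples. The labels do not say what a batch was, or whether the batches hold different mice. The study's methods give fewer mice per regimen than both batches hold together, so p-values over both batches may count a mouse more than once. The samples are whole epithelium, in which more cells that transcribe a gene cannot be told apart from more of its RNA in each cell.

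Histones package DNA into nucleosomes, with H2A, H2B, H3 and H4 in the core and H1 bound to the DNA between cores. The genes of the Hist clusters are replication-dependent: they are transcribed mainly while DNA is copied in S phase, have no introns as a rule, and their mRNAs end in a conserved stem-loop in place of a poly(A) tail. The stem-loop is bound by the protein encoded by Slbp, and selection of poly(A) RNA loses these transcripts, while removal of ribosomal RNA keeps them. Variant genes such as H3f3a, H3f3b and H2afz are expressed outside S phase as well, and their mRNAs carry poly(A) tails. In the colon, dividing cells lie in the lower part of the crypts.

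The members lay in 4 clusters of the mm10 genome, 59 loci on chromosome 13 (cluster 1, 21715713 to 23934913), 14 on chromosome 3 (cluster 2, 96219916 to 96270192), 3 on chromosome 11 (cluster 3) and 1 on chromosome 6 (cluster 4). The 16-base stem-loop consensus was found in GENCODE transcripts of 46 of the 67 loci that have one, on the sense strand, and in 45 of these the site lay inside the counted locus. In 43 the counted locus ended 4 to 8 bases after the stem-loop, which is where the mature mRNA ends. Several of the other transcripts are annotated only to the end of the coding sequence, so a missing match says only that these letters are not in the annotated transcript. The 46 sites had 8 different sequences. The commonest stood at 26 loci of the H1, H2A, H2B and H3 classes, and the 12 sites in H4 genes had stems found in none of the other 4 classes. Sites of a few members that differ in expression are shown with 5 bases on each side, with the stem-loop in capitals, as read from GENCODE transcripts of GRCm38.
Hist1h1c, chr13:23739507-23739532, plus strand: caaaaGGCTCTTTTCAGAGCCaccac
Hist1h3g, chr13:23535884-23535909, plus strand: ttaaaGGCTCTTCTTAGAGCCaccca
Hist2h2ac, chr3:96220413-96220438, minus strand: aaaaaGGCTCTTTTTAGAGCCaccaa
Hist1h4d, chr13:23581945-23581970, plus strand: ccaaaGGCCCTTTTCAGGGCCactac
Hist1h4i, chr13:22040961-22040986, minus strand: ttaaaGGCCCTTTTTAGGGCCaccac
H2afx, chr9:44335235-44335260, plus strand: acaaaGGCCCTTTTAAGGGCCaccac
H2afx was the only one of the 9 variant genes with a match, and its stem is that of most of the 12 H4 sites. It encodes an H2A that is phosphorylated at DNA breaks, and its locus runs on for 818 bases after the stem-loop.

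Upstream sequence was available from RefSeq (GRCm38.p6) for 63 promoters of 62 of the 68 symbols, each from 250 bases before to 50 after the start. Motifs were searched on both strands and at any position in these bases. CCAAT was found in 54 (85.7%) of the histone promoters and in 37.4% of all 32851 promoters of the table, and TATAAA in 35 (55.6%) against 13.6%. The octamer ATTTGCAT, a site of POU-domain factors, was present in 14 (22.2%) against 1.74%, 7 of them H2A and 7 H2B promoters. Of these 14, 12 had the longer form ATTTGCATA, which overlaps the octamer and stood in 0.627% of all promoters. Promoters of neighbouring H2A and H2B genes can overlap, so that the same site counts for both genes. This held for the octamer of Hist1h2ae and Hist1h2bg, of Hist1h2ah and Hist1h2bk, and of Hist1h2aa and Hist1h2ba. The 14 promoters therefore hold fewer than 14 separate octamer sites. TTCCCGC, a core of E2F sites, stood in 5 of the 12 H4 promoters (41.7%) and in 4.60% of all. TTTGGCGC was in 0 of the 63, against 0.514% of all. The H4 class was also set apart by CCAAT, found in 3 of its 12 promoters and in all 51 promoters of the other classes. The 150 bases before the start are shown for 4 members whose levels moved differently with diet, with motif letters in capitals.
Hist2h2bb, chr3:96269550-96269699, plus strand: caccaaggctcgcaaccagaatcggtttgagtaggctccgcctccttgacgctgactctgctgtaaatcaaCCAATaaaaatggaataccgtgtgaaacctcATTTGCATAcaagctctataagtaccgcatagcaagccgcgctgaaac
Hist1h3g, chr13:23535268-23535417, plus strand: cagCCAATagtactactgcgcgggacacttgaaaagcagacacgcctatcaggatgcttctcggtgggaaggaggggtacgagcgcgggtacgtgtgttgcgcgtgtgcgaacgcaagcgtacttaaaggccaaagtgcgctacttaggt
Hist1h1c, chr13:23738657-23738806, plus strand: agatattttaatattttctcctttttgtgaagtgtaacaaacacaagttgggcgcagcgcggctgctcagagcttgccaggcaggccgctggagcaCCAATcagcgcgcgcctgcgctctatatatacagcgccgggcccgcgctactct
Hist1h4i, chr13:22041363-22041512, minus strand: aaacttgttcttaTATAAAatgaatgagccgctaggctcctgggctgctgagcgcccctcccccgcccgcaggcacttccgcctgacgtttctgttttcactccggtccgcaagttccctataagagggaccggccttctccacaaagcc
These matches describe the sequence and do not show that a factor binds.

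Total counts per sample lay between 29189922 and 46498521 in batch 1 and between 31607019 and 65320947 in batch 2. Histone loci took 0.134 to 0.266% of them in batch 1 and 0.184 to 0.350% in batch 2. Levels are given as CPM, counts scaled to a common library size with TMM factors within each batch. Diets were tested over all genes by the quasi-likelihood method of edgeR, with the 3 diets of a batch in a fit. A gene was called at an adjusted p under 0.05 with a fold change above 1.2. All 10 epithelial markers were detected in every sample, and B cell markers stayed under 0.5 CPM. Summed CPM of 7 lymphocyte markers lay between 10.8 and 25.7 in batch 1 and between 10.8 and 17.2 in batch 2. Their ratio of HF to LF means was 0.864 in batch 1 and 1.09 in batch 2, with overlap. The ratio of HF-LF to LF means was 0.681 in batch 1, with overlap. In batch 2 it was 1.28, and every HF-LF sample was above every LF sample. Summed CPM of 4 smooth muscle markers lay between 1.08 and 9.18 in LF, 0.383 and 8.26 in HF and 2.03 and 40.2 in HF-LF mice of batch 1, and between 4.83 and 26.5, 0.624 and 4.03, and 1.42 and 13.3 in batch 2. Of these markers only Cnn1 was at 0 in any sample. In batch 2 every HF sample was below every LF sample in muscle RNA (ratio of means 0.179). The summed epithelial markers were also lower in every HF than in every LF sample of batch 2 (means 31113 and 36554 CPM, ratio 0.851), and 4 fibroblast markers had a ratio of 0.436 with overlap. In batch 1 the ratios for muscle, epithelial and fibroblast markers were 1.05, 1.03 and 0.974, all with overlap. The part of these differences in the results below was not tested.

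Many members share sequence, which limits how far single genes can be told apart. Reads were 76 bases long, and a median of 48.2% of the 76-base windows of a tested member's transcripts also occurred in transcripts of another gene. In 27 of the 57 members at least 50% of windows were shared, in 13 under 20%, and in 6 none. Windows were counted singly and on either strand, although reads came in pairs. Gene models annotated over the same locus counted as other genes. The shares may therefore overstate how many reads were ambiguous. The sources used here do not give the counting of multi-mapped reads or the use of strand. Of the 77 loci, 18 had no count, and 17 of these overlapped another member's locus, among them Hist2h2aa1, Hist2h2aa2, Hist2h3c1 and Hist2h3c2. Zero counts there say nothing about expression of these genes.

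H1 genes carried 36.1% of the summed histone CPM, H4 26.8%, H2B 21.0%, H3 9.01% and H2A 7.09%, and cluster 1 carried 90.9%. Per kilobase of locus, the highest mean levels over all 23 samples were those of the linker histone gene Hist1h1c (457 CPM per kb) and the H4 genes Hist1h4d (384) and Hist1h4c (312). Hist1h1e (267) and Hist1h4h (250.1) followed. Hist2h2bb was the highest H2B gene of a locus under 1 kb (141 CPM per kb), and Hist1h3e the highest H3 gene (93.9 CPM per kb). The 3 genes with the highest CPM held 30.9% of the summed level, and the highest 10 held 62.3%. Clusters 3 and 4 each held under 2% of it, through Hist3h2a (mean 30.3 CPM) and Hist4h4 (mean 31.0 CPM).

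The summed level of all histone genes was higher in HF than in LF mice in both batches. In batch 1 the 4 LF samples lay at 1509, 1346, 1510 and 1450 CPM, the 3 HF samples at 2268, 1727 and 2782 CPM, and the 4 HF-LF samples at 2009, 1482, 1606 and 1433 CPM. In batch 2 the LF samples lay at 2624, 2313, 2493 and 2876 CPM, the HF samples at 2976, 3617 and 2907 CPM, and the HF-LF samples at 1809, 2766, 2471, 2046 and 3071 CPM. HF samples did not overlap LF samples in either batch, although the lowest HF value of batch 2 (2907 CPM) stood only just above the highest LF value (2876 CPM). HF-LF samples overlapped both other groups in each batch. In batch 1 the LF mean was 1454 ± 77.1 CPM (SD, n = 4) and the HF mean 2259 ± 527 CPM (SD, n = 3), a ratio of 1.55. In batch 2 these means were 2577 ± 237 CPM (SD, n = 4) and 3167 ± 391 CPM (SD, n = 3), a ratio of 1.23. The lowest value of most members in batch 2 stood in HF-LF sample 1 (37 of 57) or HF-LF sample 4 (16 of 57).

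**Figure D1:**
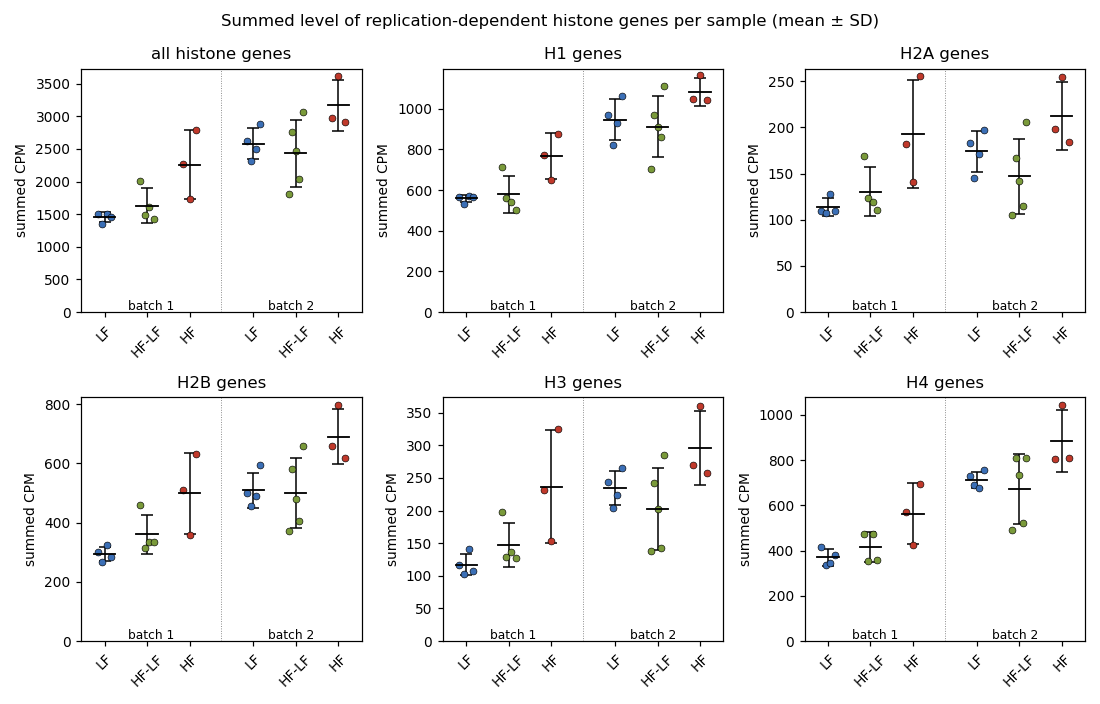
Summed CPM of all replication-dependent histone genes and of each class, per sample (points), with the mean and SD of each diet group (bars), in batch 1 (left of the dotted line) and batch 2 (right). The 3 HF samples lie above the 4 LF samples in all panels of batch 1 and, in batch 2, for all genes together, H2B and H4.

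By class, the ratio of HF to LF means in batch 1 was 1.37 for H1, 1.52 for H4, 1.70 for H2A, 1.70 for H2B and 2.02 for H3, and HF samples lay above LF samples in every class. In batch 2 the ratios were 1.15 for H1, 1.22 for H2A, 1.24 for H4, 1.26 for H3 and 1.35 for H2B, with no overlap for H2B and H4 only. H1 had the smallest ratio in both batches. HF-LF means of batch 2 were below LF means in every class, with ratios from 0.844 (H2A) to 0.980 (H2B), whereas in batch 1 they were above, from 1.03 (H1) to 1.26 (H3), and these HF-LF and LF samples overlapped throughout.

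Between HF and LF mice of batch 1, 56 of the 57 members had a positive log2 fold change, with a median of 0.91 (all genes, -0.004). None was called by edgeR, which called 0% of all genes higher, while DESeq2 called 45 higher (2.10% of all genes it tested) and limma voom with sample quality weights 50 (8.04% of all genes). At an unadjusted p under 0.05, 49 members were higher, where 12% of all genes were. In 42 members every HF sample was above every LF sample, where 6.29% of all genes were. Class medians were 0.61 for H1, 1.03 for H2A, 1.16 for H2B, 0.99 for H3 and 0.69 for H4. Without HF sample 2 of batch 1, edgeR called 48 members higher and 1 lower, where it called 5.23% of all genes higher and 4.02% lower. Without HF sample 1 or HF sample 3 it called 0 members.

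Between HF and LF mice of batch 2, 53 of 57 members were positive, with a median of 0.32, which became 0.17 without HF sample 2. Here 1 member was called higher, against 3.03% of all genes, so the share of members was no larger than the background. It was Hist2h2bb, an H2B gene of cluster 2, and 1 other, the H4 gene Hist1h4i, was called lower, where 4.4% of all genes were. Neither was called without LF sample 1, 2 or 3 or HF sample 2 or 3 of batch 2, 1 member was called, as lower, without HF sample 1, and 7 were called higher and 1 lower without LF sample 4, where 8.04% of all genes were called higher and 9.81% lower. In 20 members HF and LF samples did not overlap, with HF above, where 13.8% of all genes did so. It held in batch 1 and batch 2 alike for 19 members, where it held for 2.34% of all genes. The difference between the batches in this comparison was tested as an interaction: no member passed an adjusted p of 0.05 (lowest 0.700). At an unadjusted p under 0.05, 16 members differed, where 6.56% of all genes differed in either direction. All 16 had a lower log2 fold change in batch 2 than in batch 1, and among them Hist1h4i stood near 0 in batch 1 and below 0 in batch 2. The median difference of the 57 members was -0.59 on the log2 scale.

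With both batches in a fit and batch as a covariate, 48 of 57 members were called higher in HF than in LF mice, where 9% of all genes were called higher, and 0 were called lower, where 9.11% of all genes were. The median log2 fold change was 0.60 (all genes, -0.01). All 10 H3 genes, 11 of 12 H4, 13 of 16 H2B, 10 of 13 H2A and 4 of 6 H1 genes were called. By cluster, 42 of 47 members of cluster 1, 4 of 6 of cluster 2, 1 of 3 of cluster 3 and the 1 of cluster 4 were called. Leaving out any 1 of the LF or HF samples left 34 to 50 members called, the lowest without HF sample 3 of batch 1, where 5.97% of all genes were called higher. That sample held the highest value of 52 of the 57 members in batch 1, and HF sample 2 of batch 2 the highest of 51. Limma voom with quality weights called 26 higher and 2 lower, where it called 7.10% of all genes higher and 9.26% lower.

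**Figure D2:**
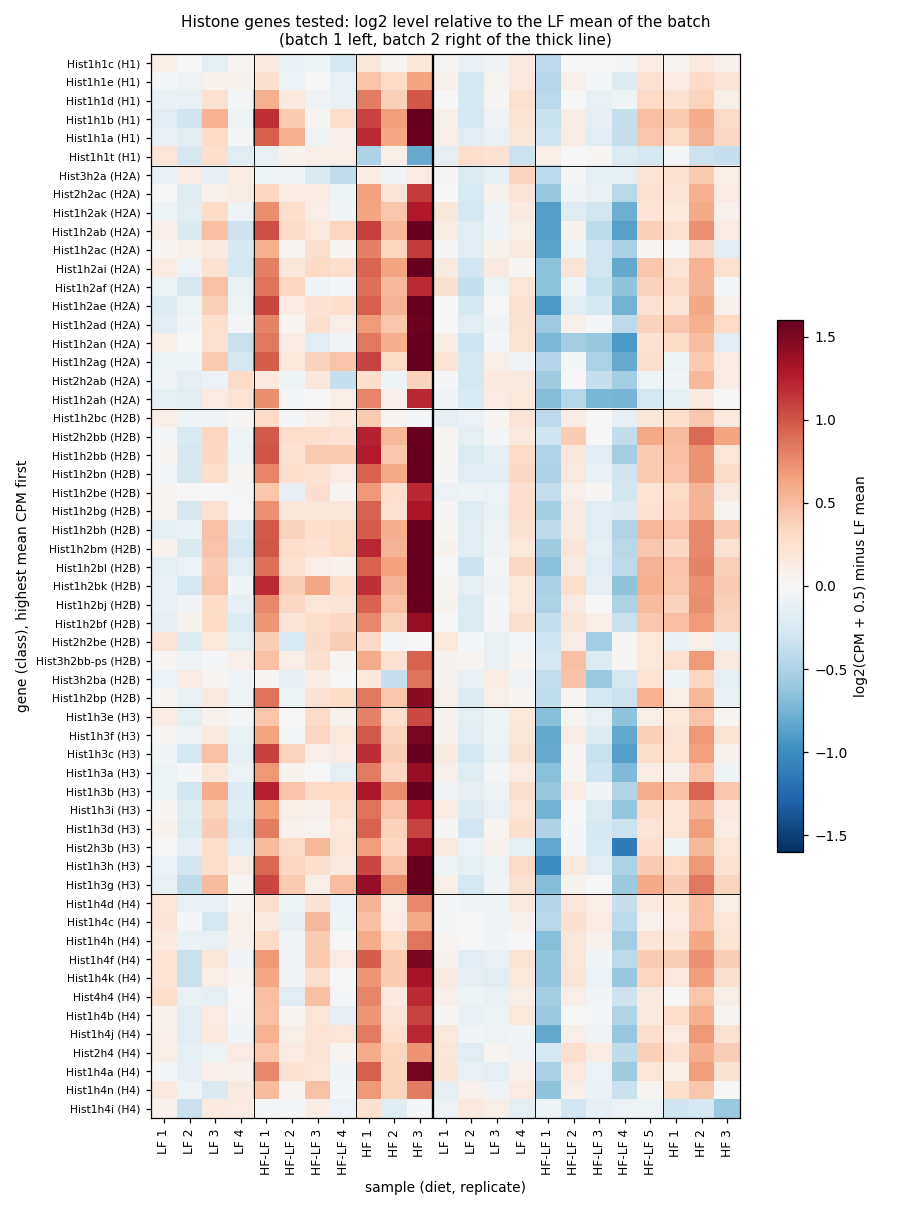
Level of each of the 57 histone genes tested in each sample, as log2(CPM + 0.5) minus the mean of the LF samples of the same batch, with red above and blue below. Genes are grouped by class and ordered by mean CPM. HF sample 3 of batch 1 and HF sample 2 of batch 2 are the darkest red columns of their batches, and Hist1h1c, Hist1h2bc, Hist2h2be and Hist1h4i stay pale in most samples.

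The largest rises over both batches were those of the H3 genes Hist1h3g and Hist1h3b and the H2B gene Hist2h2bb. Hist1h3g lay at 3.41, 2.72, 5.56 and 3.82 CPM in LF, 10.7, 6.65 and 17.8 CPM in HF and 8.42, 5.21, 4.05 and 5.48 CPM in HF-LF mice of batch 1. In batch 2 it lay at 10.3, 7.80, 9.13 and 11.4 CPM in LF, 12.8, 17.5 and 12.4 CPM in HF and 5.74, 9.95, 9.57, 6.19 and 14.8 CPM in HF-LF mice. All HF samples were above all LF samples in each batch, and HF-LF samples overlapped both other groups. Its log2 fold change was 1.06 ± 0.24 (SE; adjusted p = 0.00613, edgeR) over both batches, 1.60 ± 0.33 in batch 1 and 0.56 ± 0.25 in batch 2. Hist1h3b changed by 0.99 ± 0.21 (SE; adjusted p = 0.00536, edgeR). In Hist1h3b 82.1% of 76-base windows, and in Hist1h3g 50.4%, occurred in other genes as well.

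Hist2h2bb was the member called higher in HF than in LF mice both in batch 2 and over both batches. It lay at 32.4, 28.0, 42.4 and 31.5 CPM in LF, 78.5, 48.2 and 112 CPM in HF and 66.3, 40.2, 40.3 and 38.9 CPM in HF-LF mice of batch 1. In batch 2 it lay at 75.0, 65.2, 71.5 and 81.1 CPM in LF, 104, 138 and 113 CPM in HF and 58.2, 96.8, 73.5, 55.4 and 111 CPM in HF-LF mice. HF was above LF without overlap in each batch. Its log2 fold change was 0.97 ± 0.18 (SE; adjusted p = 0.00263, edgeR) over both batches and 0.69 ± 0.19 (adjusted p = 0.0439) in batch 2. Its promoter, shown above, holds the octamer and a CCAAT. All 76-base windows of its transcript (100%) also occur in transcripts of the unnamed gene models Gm20628 and Gm42743, so its counts cannot be assigned to it alone. Of the other members of cluster 2, Hist2h4 (0.49 ± 0.11, adjusted p = 0.00573, edgeR), Hist2h2ac (0.51 ± 0.13, adjusted p = 0.0108) and Hist2h3b (0.55 ± 0.20, adjusted p = 0.0405) were called over both batches. Hist2h4, an H4 gene, has no 76-base window in common with a transcript of another gene.

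Hist1h1c, the H1 gene with the highest level of all members, was not called. It lay between 250.4 and 297 CPM in LF and at 313, 279 and 313 CPM in HF mice of batch 1, and between 350.1 and 419 CPM in LF and at 389, 423 and 395 CPM in HF mice of batch 2. The groups overlapped in each batch, and its log2 fold change over both batches was 0.11 ± 0.07 (SE; adjusted p = 0.272, edgeR). The other abundant H1 genes, Hist1h1e (0.35 ± 0.09, adjusted p = 0.0107) and Hist1h1d (0.49 ± 0.13, adjusted p = 0.00990), were called. The H4 genes Hist1h4d (0.37 ± 0.11, adjusted p = 0.0189), Hist1h4h (0.48 ± 0.13, adjusted p = 0.0123) and Hist1h4c (0.34 ± 0.12, adjusted p = 0.0331) were called as well. Among the 10 members with a mean of at least 50 CPM the median log2 fold change over both batches was 0.42, against 0.63 in the 18 members under 10 CPM. These medians were 0.54 and 0.94 in batch 1 and 0.28 and 0.24 in batch 2, and the difference between high and low members was not tested. Hist1h2bc, the H2B gene with the highest count, had 0.22 ± 0.09 (adjusted p = 0.0788). Its locus spans 8282 bases, and the counts there cannot be assigned to the short mRNA alone.

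Among the H2A, H2B and H3 genes with the highest levels, Hist1h2ak (0.55 ± 0.18, adjusted p = 0.0259, edgeR), Hist1h2bb (0.85 ± 0.20, adjusted p = 0.00642) and Hist1h3c (0.75 ± 0.23, adjusted p = 0.0208) were called over both batches. So were Hist1h3f (0.71 ± 0.19, adjusted p = 0.0108) and Hist1h3e (0.48 ± 0.14, adjusted p = 0.0162). In Hist1h2bb, HF values of 49.2, 27.6 and 69.3 CPM stood against LF values of 16.7 to 25.5 CPM in batch 1, with no overlap. In batch 2, HF values of 69.3, 81.6 and 56.4 CPM stood against 42.2 to 61.3 CPM, and the groups overlapped by 1 HF sample. Hist4h4, the gene of cluster 4, was called at 0.48 ± 0.15 (adjusted p = 0.0239) and has no shared window either.

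Of the 57 members, 9 were not called between HF and LF mice over both batches: Hist1h1c, Hist1h1t, Hist1h2ah, Hist1h2bc, Hist1h4i, Hist2h2ab, Hist2h2be, Hist3h2a and Hist3h2ba. Hist2h2be had a log2 fold change of 0.02 ± 0.13, with overlapping HF and LF samples in each batch, and its annotated transcript holds no match to the stem-loop. Hist3h2a had 0.16 ± 0.09 (adjusted p = 0.202, edgeR), and Hist3h2ba 0.27 ± 0.22 at a mean of 1.35 CPM. The pseudogene Hist3h2bb-ps of the same cluster was called at 0.67 ± 0.17 (adjusted p = 0.00906). Hist2h2ab had 0.23 ± 0.15 (adjusted p = 0.243). The testis H1 gene Hist1h1t, at a mean of 0.415 CPM, had -0.79 ± 0.31 (adjusted p = 0.0592).

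Hist1h4i was the one member called lower in HF than in LF mice, and only in batch 2. In batch 2 it lay at 12.1, 14.6, 14.0 and 11.7 CPM in LF, 10.4, 10.7 and 8.49 CPM in HF and 12.3, 10.5, 11.9, 12.2 and 12.3 CPM in HF-LF mice. All 3 HF samples were below all 4 LF samples, and its log2 fold change was -0.42 ± 0.10 (SE; adjusted p = 0.0369, edgeR). In batch 1 LF samples lay between 4.95 and 7.27 CPM and HF samples at 7.76, 5.62 and 6.31 CPM, with a log2 fold change of 0.004 (adjusted p = 0.988). Over both batches it was not called (-0.21 ± 0.10, adjusted p = 0.115). Its promoter holds the TATA motif and none of the others in the 300 bases searched. Among the H4 genes called higher over both batches, the promoter of Hist1h4d holds the TATA, CCAAT and E2F-type motifs. That of Hist1h4n holds TATA alone, as in Hist1h4i, and those of Hist1h4b, Hist1h4h and Hist4h4 hold none. The motifs searched therefore did not set Hist1h4i apart from H4 genes that rose.

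**Figure D3:**
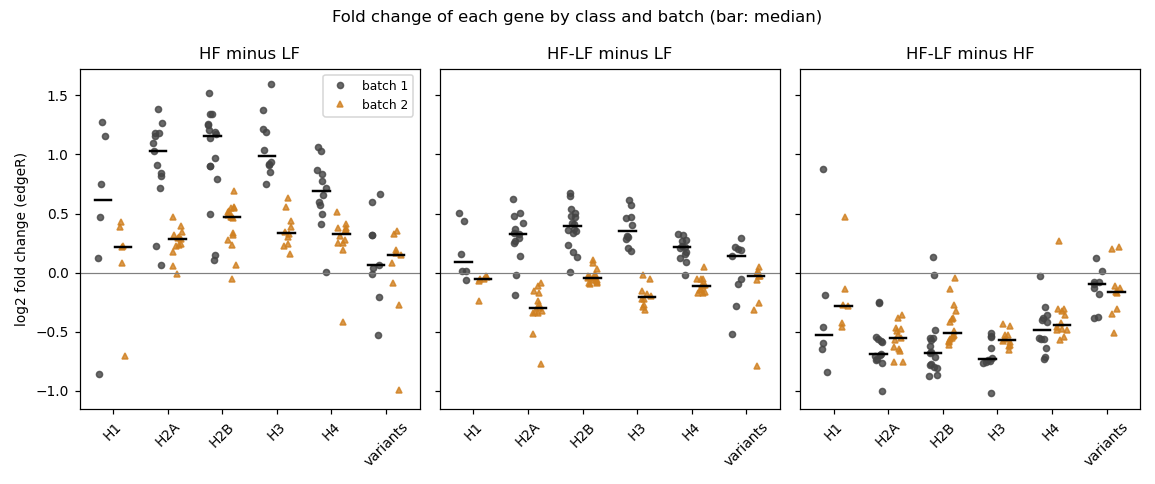
Log2 fold change of each histone gene tested and of the 9 variant genes, by class, in batch 1 (circles) and batch 2 (triangles), for each of the 3 comparisons of diets, with the median of a class as a bar. Medians of HF minus LF lie between 0.61 and 1.16 in batch 1 and between 0.22 and 0.47 in batch 2 for the 5 classes, and those of HF-LF minus HF are below 0 in both batches.

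HF-LF mice, returned to the LF diet for 28 weeks, were compared with LF mice to ask whether histone levels still differed after the switch. No member was called in either batch or in both. In batch 1, 53 of 57 members were positive with a median of 0.31, and 0% of all genes were called higher. At an unadjusted p under 0.05, 2 members were higher, where 2.50% of all genes were. Without HF-LF sample 1 the median of batch 1 was 0.14. In batch 2, 53 of 57 were negative with a median of -0.11, and 0.00696% of all genes were called lower. At an unadjusted p under 0.05, 2 members were lower, where 2.50% of all genes were. The median of batch 2 was -0.001 without HF-LF sample 1, -0.04 without HF-LF sample 4, -0.05 without LF sample 4, -0.17 without HF-LF sample 2 and -0.23 without HF-LF sample 5. Over both batches the median was 0.05, and -0.01 without HF-LF sample 1 of batch 1. There 0 members had an unadjusted p under 0.05, where 1.92% of all genes were higher, and 0% of all genes were called higher. DESeq2 and limma voom called 0 members in each of these fits as well. Tested as an interaction, no member differed between the batches in this comparison at an adjusted p under 0.05 (lowest 0.632, edgeR), and 6 did at an unadjusted p under 0.05, where 7.58% of all genes did.

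Compared with HF mice, HF-LF mice had lower histone levels. In batch 1, 55 of 57 members were negative, with a median of -0.62, which became -0.34 without HF sample 3. EdgeR called 0 members and 0% of all genes lower, as did DESeq2 and limma voom for the members, and 48 members had an unadjusted p under 0.05 where 6.04% of all genes did. In 1 member, Hist1h1e, the groups did not overlap, where 4.07% of all genes were lower without overlap. In batch 2, 55 of 57 were again negative with a median of -0.49, and 14 members were called lower against 5.61% of all genes: 6 H2A, 4 H2B, 2 H3 and 2 H4 genes. Only Hist1h2ah was without overlap, where 12.4% of all genes were. Over both batches 46 members were called lower, against 4.90% of all genes, with a median of -0.56 and 12 of 13 H2A, 9 of 10 H3, 10 of 12 H4, 11 of 16 H2B and 4 of 6 H1 genes among them.

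The falls with the largest size over both batches were those of the H2A genes Hist1h2an (-0.90 ± 0.24, adjusted p = 0.0195, edgeR) and Hist1h2ah (-0.74 ± 0.23, adjusted p = 0.0338) and of Hist1h3g (-0.84 ± 0.23, adjusted p = 0.0222). In Hist1h2ah of batch 2, the 5 HF-LF samples lay at 0.947, 1.21, 0.904, 0.895 and 1.43 CPM and the HF samples at 1.60, 2.08 and 1.82 CPM, all HF samples higher. Of the abundant genes, Hist1h1e fell by 0.37 on the log2 scale (SE 0.09, adjusted p = 0.0152) and Hist1h4d by 0.36 (SE 0.11, adjusted p = 0.0329), whereas Hist1h1c had -0.16 ± 0.07 (adjusted p = 0.112). Hist3h2a and Hist2h2ab, not called between HF and LF mice, were called lower here at -0.31 ± 0.09 (adjusted p = 0.0297) and -0.42 ± 0.14 (adjusted p = 0.0488). In Hist3h2a 100% of windows, and in Hist2h2ab 56.3%, are shared with other genes. The count depended on single HF samples: 4 members were called without HF sample 3 of batch 1 (1.88% of all genes lower), 12 without HF sample 2 of batch 2 (2.18%) and 26 without HF sample 1 of batch 1 (3.04%). In batch 2 alone, 0 of the members were called without HF-LF sample 1, HF-LF sample 4, HF sample 2 or HF sample 3, 2 without HF-LF sample 3 (6.81% of all genes lower), 3 without HF sample 1 (5.64%) and 44 without HF-LF sample 5 (5.89%). Without HF-LF sample 2, 35 were called lower (9.41% of all genes) and 1 higher. Over both batches the count was 17 with same-numbered samples of a diet summed over the batches (4.60% of all genes lower), and 8 with limma voom (3.98%).

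Among the variant genes, H2afz and H3f3a rose in HF mice and the others of comparable level were not called. H2afz encodes an H2A variant placed near transcription starts. It lay at 72.6, 60.0, 61.7 and 71.5 CPM in LF and 94.8, 70.7 and 136 CPM in HF mice of batch 1, and at 87.7, 86.2, 81.9 and 99.0 CPM in LF and 99.7, 128 and 106 CPM in HF mice of batch 2. HF and LF samples overlapped in batch 1 and were separate in batch 2. Its log2 fold change over both batches was 0.46 ± 0.11 (SE; adjusted p = 0.00867, edgeR), and -0.37 ± 0.11 (adjusted p = 0.0323) for HF-LF against HF mice. H3f3a, which encodes the replacement form of H3, changed by 0.34 ± 0.09 (adjusted p = 0.0127) over both batches and by 0.36 ± 0.10 (adjusted p = 0.0485) in batch 2, where its HF samples (194, 234 and 207 CPM) were above its LF samples (154 to 178 CPM). For HF-LF against HF mice it was called in batch 2 (-0.31 ± 0.10, adjusted p = 0.0425) and had -0.22 ± 0.09 (adjusted p = 0.0876) over both.

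H3f3b, which encodes the same protein as H3f3a and had the highest level of the variant genes (mean 605 CPM), had 0.07 ± 0.07 (adjusted p = 0.460, edgeR) between HF and LF mice. H2afx, the variant with a stem-loop, had 0.42 ± 0.16 (adjusted p = 0.0524) between HF and LF mice and fell by 0.45 on the log2 scale (SE 0.15, adjusted p = 0.0489) between HF and HF-LF mice. In batch 1 its HF samples lay at 30.6, 24.7 and 45.9 CPM, with 1 of them inside the LF range of 19.6 to 25.2 CPM. H2afy, which encodes macroH2A, had 0.07 ± 0.04 (adjusted p = 0.193), and H2afv had 0.12 ± 0.08 (adjusted p = 0.230). H1f0, the linker histone of cells that have left the cell cycle, had 0.11 ± 0.13 (adjusted p = 0.521), with 0.32 ± 0.18 in batch 1 and -0.09 ± 0.13 in batch 2. H1fx was called lower (-0.63 ± 0.23, adjusted p = 0.0427), and H2afy2 had -0.40 ± 0.27 (adjusted p = 0.250). Both lay under 1 CPM in every sample. The 9 variants had a median of 0.11 between HF and LF mice, beside 0.60 for the replication-dependent members. H2afj and Cenpa, further variants that were tested, had 0.03 ± 0.10 and 0.35 ± 0.20 and were not called, and Hils1, H1foo and H2bfm did not pass the filter.

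**Figure D4:**
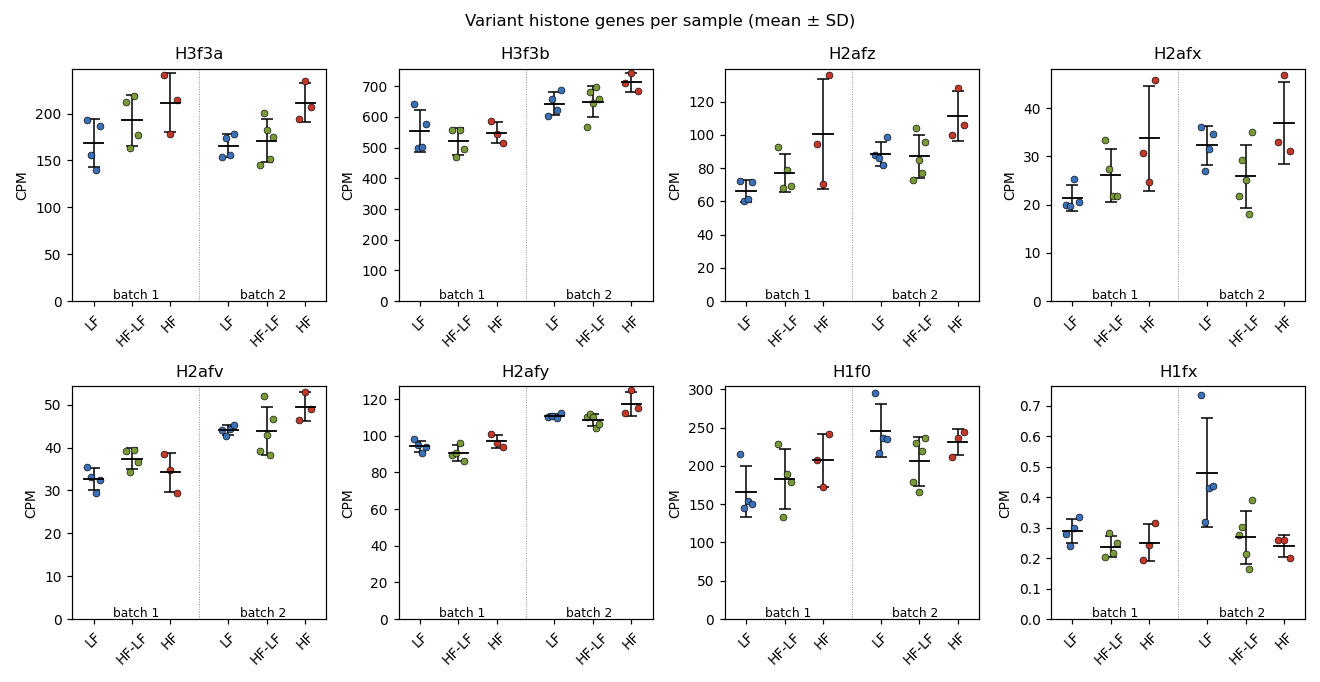
CPM of 8 variant histone genes per sample (points), with the mean and SD of each diet group, in batch 1 (left of the dotted line) and batch 2 (right). HF samples of H2afz and H3f3a lie above LF samples in batch 2, and H3f3b differs little between diets.

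As a share of the counts of their family, the 2 H3 variants in batch 1 made up 85.9% ± 2.67 (SD, n = 4 LF samples) and 76.6% ± 6.77 (SD, n = 3 HF samples). In batch 2 they made up 77.5% ± 2.03 and 75.9% ± 2.46. HF and LF samples overlapped in both batches. The 5 H2A variants made up 65.5% ± 2.44 and 58.5% ± 3.74 in batch 1, with every HF sample below every LF sample, and 61.5% ± 2.30 and 59.9% ± 2.01 in batch 2, with overlap. For H1f0 and H1fx together the shares were 22.8% ± 3.21 and 21.3% ± 0.368 in batch 1 and 20.7% ± 2.19 and 17.6% ± 1.24 in batch 2. These are shares of counts, in which the longer transcripts of the variants weigh more, so they describe samples and not amounts of protein.

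Of 12 genes that mark dividing cells, 8 were called higher in HF than in LF mice over both batches and 0 lower, with a median of 0.35, where 9% of all genes were called higher. In each batch alone 0 of the 12 were called, and 12 were positive in batch 1 and 10 in batch 2. The called genes with the largest change were Ccna2 (0.72 ± 0.21, adjusted p = 0.0178, edgeR), Ccnb1 (0.61 ± 0.22, adjusted p = 0.0443) and Top2a (0.53 ± 0.17, adjusted p = 0.0257), of which Ccna2 and Ccnb1 encode cyclins and Top2a a topoisomerase. Pcna, the clamp of DNA polymerase, had 0.32 ± 0.08 (adjusted p = 0.00966). Mki67, the highest of the list, was not called (0.23 ± 0.18, adjusted p = 0.328). Their median was 0.59 in batch 1 and 0.11 in batch 2, below the histone medians of 0.91 and 0.32. Across samples, the summed histone CPM and the summed CPM of these genes, both as log2, had a Pearson r of 0.880 and a Spearman rho of 0.791 over the 11 samples of batch 1, and 0.593 and 0.678 over the 12 of batch 2. Without the 2 samples farthest from the median of the proliferation genes, r was 0.679 in batch 1 and 0.664 in batch 2. The summed smooth muscle markers had an r of -0.616 and a rho of -0.559 with the histone sum in batch 2 (r -0.531 without the 2 farthest samples), and -0.327 and -0.255 in batch 1 (r 0.107). Fibroblast markers had an r of -0.571 and a rho of -0.517 in batch 2 (r -0.419), and -0.474 and -0.136 in batch 1 (r 0.398). These are descriptions over samples that share diets within a batch, and the part of dividing, muscle or fibroblast cells in the histone difference was not tested.

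**Figure D5:**
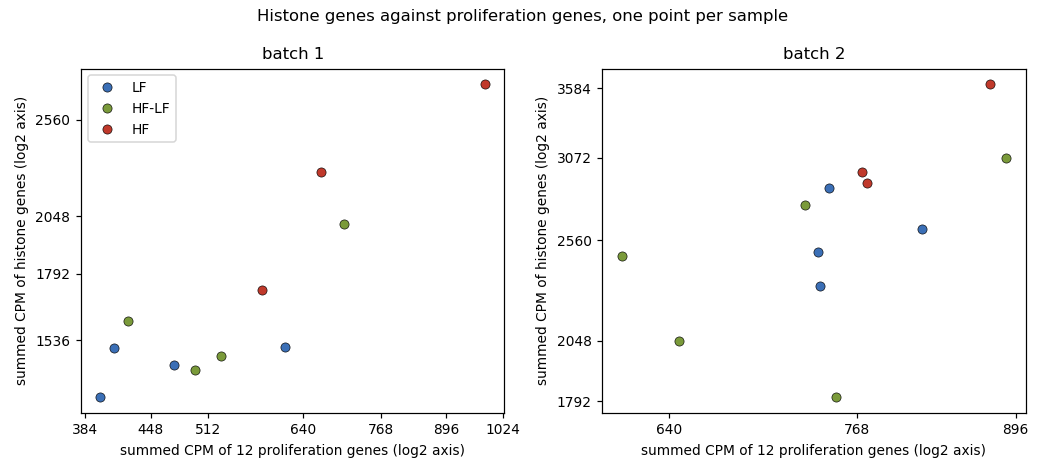
Summed CPM of the histone genes against summed CPM of 12 proliferation genes, one point per sample, on log2 axes, for batch 1 (left) and batch 2 (right), coloured by diet. HF sample 3 of batch 1 stands at the top right of its panel with 2782 CPM of histone genes, and the points of batch 2 scatter more widely (Pearson r 0.593, against 0.880 in batch 1).

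Of 19 genes for transcription, processing and decay of histone mRNA, 4 were called higher in HF than in LF mice over both batches and 0 lower, where 9% and 9.11% of all genes were, with a median of 0.07. They were Cstf2 (0.34 ± 0.07, adjusted p = 0.00423, edgeR) and Cpsf2 (0.28 ± 0.07, adjusted p = 0.00806), which encode subunits of cleavage complexes, Eri1 (0.30 ± 0.07, adjusted p = 0.00606), an exonuclease that trims the histone stem-loop, and Lsm10 (0.28 ± 0.09, adjusted p = 0.0304), a part of the U7 particle. Slbp, whose product binds the stem-loop, had 0.16 ± 0.06 (adjusted p = 0.0470), a change under 1.2-fold, and Npat, the coactivator of histone gene transcription, had 0.06 ± 0.05 (adjusted p = 0.407). The most abundant of the list, Upf1, Sympk and Srrt, had -0.24 ± 0.06, -0.22 ± 0.06 and -0.01 ± 0.06 and were not called, the first 2 with adjusted p of 0.00939 and 0.0186 but changes under 1.2-fold.

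Of 18 histone chaperone genes, 3 were called higher and 0 lower, against the same 9% and 9.11% of all genes, with a median of 0.11. Asf1b, the chaperone of H3 and H4 in dividing cells, changed by 0.70 ± 0.16 (adjusted p = 0.00631, edgeR), Chaf1b, a subunit of the assembly factor CAF-1 that loads new H3 and H4, by 0.45 ± 0.17 (adjusted p = 0.0465), and Nap1l1, a chaperone of H2A and H2B, by 0.37 ± 0.10 (adjusted p = 0.0104). Between HF and HF-LF mice Asf1b, Chaf1b and Nasp fell by 0.68, 0.51 and 0.30 on the log2 scale (adjusted p = 0.0134, 0.0371 and 0.0140). The most abundant chaperones, Atrx, Cabin1 and Supt16, were not called in either comparison.

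RNAs of other kinds without a poly(A) tail were tested as well. Of 5, 0 were called higher in HF mice and 1, the spliceosomal Rnu12, was called lower over both batches (-0.56 ± 0.18, adjusted p = 0.0238, edgeR). Rmrp and Rpph1, the most abundant, had -0.17 ± 0.11 and 0.07 ± 0.14, and the median of the 5 was -0.10 in batch 1 and -0.32 in batch 2.

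The difference between HF and LF mice was seen in members with little and with much shared sequence. Over both batches 9% of all genes were called higher. Of the 13 members with under 20% of windows shared, 9 were called higher (median 0.48). So were 18 of 21 with 20 to 60% shared (median 0.69) and 20 of 22 with more (median 0.67). Of the 39 members whose transcripts hold a stem-loop match, 34 were called (median 0.59), and of the 17 without a match 13 (median 0.61). Of the 4 members with a locus over 1 kb, 2 were called (median 0.39).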

How the data were processed

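RNA was sequenced from 23 samples of mouse colonic epithelium. The authors deposited whole-number read counts for each locus and sample, not normalized. By the study's methods and the submitters' processing notes, 76-base read pairs were trimmed with cutadapt 1.2.1, mapped to mm10 with STAR 2.5 and counted with featureCounts 1.5.0-p1. The annotation, the strand setting and the treatment of multi-mapped reads are not given in the sources used here.

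Counts were fitted in edgeR 4.0.16 (R 4.3.3) with TMM factors, filterByExpr by diet and the quasi-likelihood F test, per batch (14428 and 14377 genes) and over both (14385 genes, batch as covariate). SE is the log2 fold change divided by the root of F. The biological coefficient of variation was 0.158 in batch 1 and 0.102 in batch 2. A count of 3 is 0.0459 to 0.103 CPM, and such floors cover counting error only, since reads carry no molecular identifiers. No 2 samples of a group agreed within sampling noise (chi-square per degree of freedom at least 10.8). p-values measure the spread between samples, which the labels do not trace to mice.

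Named genes were the 3 highest of each class, all variants, members of clusters 2 to 4 with at least 0.5 CPM, and the 3 largest called rises and falls per comparison. Hist1h1t, Hist1h2ah, Hist1h4i in batch 1 and the other members not called were named after their values were seen. From other lists, the 3 largest called changes and 3 highest genes were named, besides Slbp, Npat and Lsm10, named after their values were seen. Members and lists were chosen with earlier results of these data known. The test was tried on simulated data. Alternatives were RLE factors, no filter, DESeq2 1.42.0, limma 3.58.1 voom with quality weights, other sample sets, a replicate block, no fold minimum and leaving out each sample. No protein sequences were used here.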

Additional observations from a re-analysis of the deposited data

Results flagged for a closer look

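Of 168 sets of 4 or 5 samples of one diet and batch, for the genes and class sums named, 12 held a sample far from the others by Dixon's test at the 95% level, and chance alone flags about 1 in 20. HF groups, with 3 samples, were not tested. In batch 1, HF-LF sample 1 stood above the other HF-LF samples in Hist2h2bb (66.3 CPM, others 38.9 to 40.3), Hist1h3b (20.1 CPM, others 10.5 to 11.5), Hist1h2ah (1.88 CPM, others 0.894 to 1.02), the H2B sum (459 CPM, others 315 to 336) and the H3 sum (197 CPM, others 127 to 136). Among LF samples of batch 1, sample 1 was high in H1f0 (215 CPM, others 144 to 155), sample 3 in H2afx (25.2 CPM, others 19.6 to 20.5) and in the H2A sum (128 CPM, others 107 to 110), and sample 2 was low in the H1 sum (533 CPM, others 565 to 571). In batch 2, HF-LF sample 5 was high in Hist1h2an (4.82 CPM, others 1.90 to 2.59), HF-LF sample 2 was low in Hist1h4i (10.5 CPM, others 11.9 to 12.3) and LF sample 3 was low in Hist3h2bb-ps (1.37 CPM, others 1.58 to 1.62).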

How the results depend on the processing

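The 9 median log2 fold changes moved by less than the SD of single-sample medians within groups (0.280 to 0.297) in all 149 alternatives. This bar is wide. It exceeded the medians for HF-LF against LF mice of batch 2 (-0.11) and both batches (0.05), and was close to those of 0.31 and 0.32. Staying under it says little for these medians. Of the 149 alternatives 3 turned the sign, all of the median of 0.05 for HF-LF against LF mice over both batches (-0.01 to 0.11). The median moved by over 1.5 times without HF sample 2 for HF against LF mice of batch 2 (0.32 to 0.17), without HF sample 3 for HF-LF against HF mice of batch 1 (-0.62 to -0.34), and for HF-LF against LF mice, without HF-LF sample 1 in batch 1 (0.31 to 0.14) and in batch 2 (-0.11 to between -0.25 and -0.001 under 7 alternatives). Counts of members called moved more. For HF against LF mice of batch 1 (0 called), DESeq2 gave 45 higher (2.1% of all genes), limma voom 50 (8.04%) and the replicate block 7 (0.208%). Leaving out single samples gave 0 to 49. For batch 2 (2 called), DESeq2 gave 4, limma voom 5, the replicate block 5, a fit of the 2 groups alone 17, and leaving out samples 0 to 8. For both batches (48 called) limma voom gave 28. With same-numbered samples of a diet summed over the batches 38 were called, all higher, where 8.07% of all genes were. Leaving out samples gave 34 to 50. For HF-LF against HF mice of batch 2 (14 called), no filter gave 25, DESeq2 23, limma voom 6, the replicate block 47, the 2 groups alone 2, and leaving out samples 0 to 44. For both batches (46 called) limma voom gave 8, sums over batches by number 17, and leaving out samples 4 to 51. The causes were not tested. In the fits over both batches the replicate block gave 40 higher and 1 lower for HF against LF mice (9.55% and 10.3% of all genes). For HF-LF against HF mice it gave 46 lower (5.53%). Whether numbers pair the samples stayed unsettled. Deviations from group means of same-numbered samples correlated at -0.51 to 0.50 in batch 1 and -0.14 to 0.51 in batch 2. Differently numbered samples correlated at -0.52 to 0.55 and -0.41 to 0.36. The medians were 0.14 for same and -0.05 for different numbers in batch 1, and 0.08 and 0.002 in batch 2. The other counts kept their value of 0 or stayed within 1.5 times. Of 5686 values of the 36 named genes under alternatives, 244 lost and 151 gained a call, and 0 turned a called direction. Depth limits H1fx, H2afy2 and Hist1h1t most, which lie under 1 CPM.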
